A study of Mus musculus with 8 samples.

Results

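The numbered zinc finger protein genes of the mouse are those whose symbol is Zfp followed by a number. They were described in transformed pro-B cells given either DMSO or the compound dTAG-13, which induces degradation of the tagged transcription factor EBF1. Members were chosen by name and by level only: a symbol of that form in the deposited table and a mean of at least 3 exonic CPM (counts per 1000000 reads in exons, scaled by TMM factors) over the 8 libraries. Of the 47937 gene identifiers counted, 362 carried such a name, and 248 of these reached the floor. All 248 were annotated as protein coding, and they lay on 20 chromosomes. The rule did not use the comparison of dTAG-13 with DMSO, although earlier results of these data were known when it was set. Its mean runs over both groups, so a gene near the floor can reach it through the group where it is higher. Examples are Zfp874a and Zfp566, which averaged under the floor after dTAG-13, and Zfp948, which averaged under it in DMSO. The 3 members just inside the floor were Zfp658, Zfp948 and Zfp951, at 3.14, 3.38 and 3.40 CPM, and the 3 numbered genes just outside it were Zfp433, Zfp938 and Zfp429, at 2.86, 2.75 and 2.73 CPM.

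The cells were mouse pro-B cells transformed with the Abelson murine leukemia virus (A-MuLV), of the genotype EBF1-dTAG_N, in which an exogenous modified gene stands in for endogenous EBF1. All libraries of both groups came from this genotype. The dTAG system fuses a protein to a tag that the small molecule dTAG-13 links to a ubiquitin ligase, so that the tagged protein is degraded. One group of 4 libraries came from cells given DMSO, the solvent, for 6 h (their titles give 0 h), and the other 4 from cells given 0.5 µM dTAG-13 for 6 h. The design text calls the 4 libraries of a condition biological replicates. Whether they were separate cultures of 1 transformed line is not given in the sources used here, so the p-values measure only the spread between these samples. No dTAG-13 treatment of cells without the tag was analysed here, so effects of the compound and of the loss of EBF1 cannot be told apart.

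Most zinc finger proteins of this name carry tandem C2H2 fingers, each a short loop held by a zinc ion between a pair of cysteines and a pair of histidines, which together read DNA. In the largest subfamily the fingers follow a KRAB domain, which binds TRIM28 (KAP1). TRIM28 brings in the histone methyltransferase SETDB1, heterochromatin protein 1, the NuRD complex and DNA methylation, and these proteins are best known for silencing transposable elements. KRAB genes have multiplied by tandem duplication and lie in clusters. The ZFP36 proteins, numbered in the same series, have CCCH fingers that bind AU-rich RNA and lead to its decay, and in early B cells they are known for restraining the cell cycle. EBF1 itself is a factor that specifies the B lineage, and the zinc finger proteins ZFP521 and ZFP423 are known to bind it.

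Each library held 28982316 to 38999496 exonic reads and 8286937 to 13293487 intronic reads, the latter being 20.4% to 27.3% of all reads on genes. Of the exonic reads, 25.7% to 29.3% lay on Gm26917 and Gm42418, which overlap ribosomal RNA. The RNA of Ebf1 was present at 623 CPM in DMSO and 767 CPM after dTAG-13 (log2 change 0.30, adjusted p = 2.1e-07, and 0.13 with an adjusted p of 0.36 in whole-gene counts). It does not check the treatment, which acts on the protein. Of 12 pro-B cell markers, 11 were above 1 CPM in these cells and Kit was at 0. In exonic reads 9 of those 11 were lower and none higher, with a median log2 change of -0.54. Their summed level was 3773 to 3866 CPM in DMSO and 2792 to 2968 CPM after dTAG-13. No gene of the T cell, myeloid, erythroid, stromal or NK cell lists reached 1 CPM. The myeloid list summed to 0.162 to 0.449 CPM in DMSO and 0.485 to 1.12 CPM after dTAG-13, with Elane at 0, and the NK list to 0.104 to 0.261 and 0.381 to 0.727 CPM, with Ncr1 and Gzma at 0. Of each list 1 gene had enough reads to be tested and was higher, Lyz2 (log2 change 1.26, adjusted p = 0.031) and Klrb1c (1.32, adjusted p = 0.025). The part of these shifts in the changes given here was not tested. In bulk RNA, fewer cells of a type and less RNA per cell cannot be told apart.

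Within 6 h of dTAG-13, a minority of the numbered zinc finger genes changed in exonic reads, and most changes were small. Among the members, Zfp874a, Zfp36 and Zfp566 fell the most, and Zfp831, Zfp52, Zfp710 and Zfp983 rose the most. Of the 248 members tested, 54 (21.8%) passed an adjusted p of 0.05 in edgeR's quasi-likelihood test, 24 lower and 30 higher, and 194 did not. Over all 12889 genes tested the share was 28.3%, with 14.0% lower and 14.3% higher. Among the 9581 genes at or above the same floor it was 35.0%, with 17.7% lower and 17.3% higher. The members' share was below both backgrounds, a difference that was not tested. In 55 members (22.2%) the CPM of the 4 DMSO libraries did not overlap that of the 4 dTAG-13 libraries, against 27.7% of all genes tested and 33.8% of those at the floor or above. Of the 54 that changed, 48 had groups that did not overlap. Below the floor 34 numbered genes were tested, and 1 was lower and 1 higher, with changes larger than those of any member in the same direction. They were Zfp345, at a mean of 0.295 CPM (log2 change -1.85, adjusted p = 0.0085), and Zfp784, at 1.92 CPM (0.77, adjusted p = 0.0096). Both are named after their values were seen.

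The members were expressed at lower levels than other genes past the floor, and their errors were larger. Their median level was 19.2 CPM, within a range of 3.14 to 317 CPM, against 36.3 CPM for all genes at the floor or above. The median standard error of a log2 change was 0.07 for members and 0.05 for those genes. Set beside other genes of like level, the members' share was the lower one in each range. Between 10 and 30 CPM, 10.4% of 96 members changed, against 28.6% of 2517 other genes. Between 3 and 10 CPM the shares were 15.9% of 63 members and 20.7% of 1510 others. From 30 to 100 CPM they were 38.9% of 72 and 40.3% of 3487, and at 100 CPM and over 35.3% of 17 and 47.3% of 1819. These shares are descriptions, and no test between members and other genes was made.

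The median log2 change of all 248 members was 0.03, beside -0.00 for all genes tested, and 143 members had a positive and 105 a negative value. The median size of a change, regardless of sign, was 0.09 on the log2 scale for members and 0.11 for genes past the floor. Among changes that passed the test, the median size was 0.25 for members and 0.26 for all genes past the floor. Of the members, 7 (2.82%) both passed the test and moved by at least 1.5-fold, against 5.32% of genes past the floor: the 3 that fell most and the 4 that rose most, named above. The summed exonic level of the 248 members was 8251 ± 12.8 CPM (SD, n = 4) in DMSO and 8300 ± 86.4 CPM (SD, n = 4) after dTAG-13, and the ranges of the 2 groups overlapped. Per kilobase of exon, the scale on which levels of different genes can be compared, the highest members were Zfp36l1, Zfp36l2, Zfp706, Zfp207 and Zfp106, at 70.1, 54.9, 37.3, 35.4 and 30.4 CPM per kilobase.

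**Figure D1:**
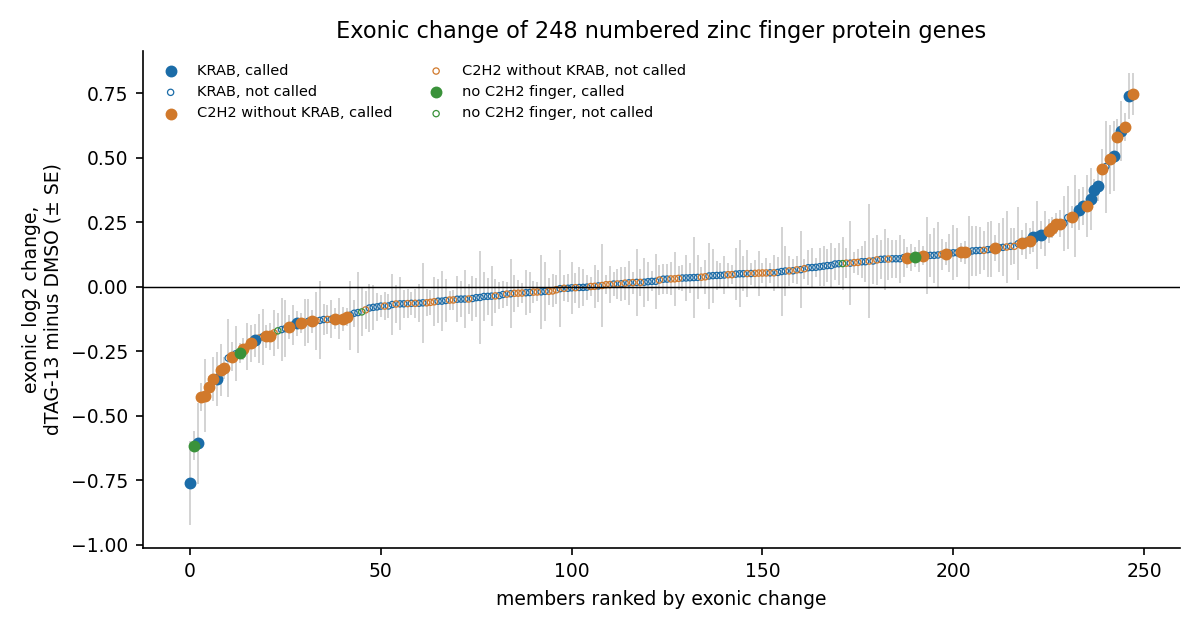
Exonic log2 change (dTAG-13 minus DMSO, ± SE) of the 248 members, ranked from the lowest to the highest; filled points passed an adjusted p of 0.05 and colours give the protein class. Changes ran from -0.76 to 0.75, and most members lay close to 0.

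Protein sequence divided the members into 140 with a KRAB domain, 102 with C2H2 fingers and no KRAB domain found, and 6 in which no C2H2 finger was found, among them the 3 ZFP36 proteins. The KRAB proteins had a median of 12 fingers (2 to 30) and the others a median of 7 (1 to 37). Among the KRAB genes 15 of 140 (10.7%) changed, 5 lower and 10 higher, with a median log2 change of 0.04. Among the C2H2 genes without KRAB 36 of 102 (35.3%) changed, 17 lower and 19 higher, with a median of 0.01. Of all genes at the floor or above 35.0% changed. The KRAB share was below that value, and the share of the C2H2 genes without KRAB was near it. The classes differed in level, with medians of 13.6 CPM for KRAB genes and 36.6 CPM for the others, and in standard error, with medians of 0.09 and 0.05. From 30 to 100 CPM, 4 of 21 KRAB genes (19.0%) and 23 of 50 others (46.0%) changed. From 10 to 30 CPM these were 5 of 63 (7.94%) and 5 of 31 (16.1%), and from 3 to 10 CPM 6 of 53 (11.3%) and 4 of 9 (44.4%). At 100 CPM and over, none of the 3 KRAB genes and 4 of the 12 others (33.3%) changed. In each of these ranges the KRAB share was the lower one, although the difference between classes was not tested and some ranges held few genes. The share of the C2H2 genes without KRAB was above that of non-member genes from 30 to 100 CPM (40.3%) and from 3 to 10 CPM (20.7%). It was below theirs from 10 to 30 CPM (28.6%) and at 100 CPM and over (47.3%).

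Zinc finger genes with other names were counted in the same way. Of 33 Zbtb genes, whose proteins join C2H2 fingers to a BTB domain, 3 were lower and 5 higher (24.2%), against 28.3% of all genes tested and 35.0% of those at the floor or above. Of 14 Zscan and Zkscan genes, whose proteins carry a SCAN domain, 1 was lower and 1 higher (14.3%), also below both backgrounds, and no difference between families was tested.

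**Figure D2:**
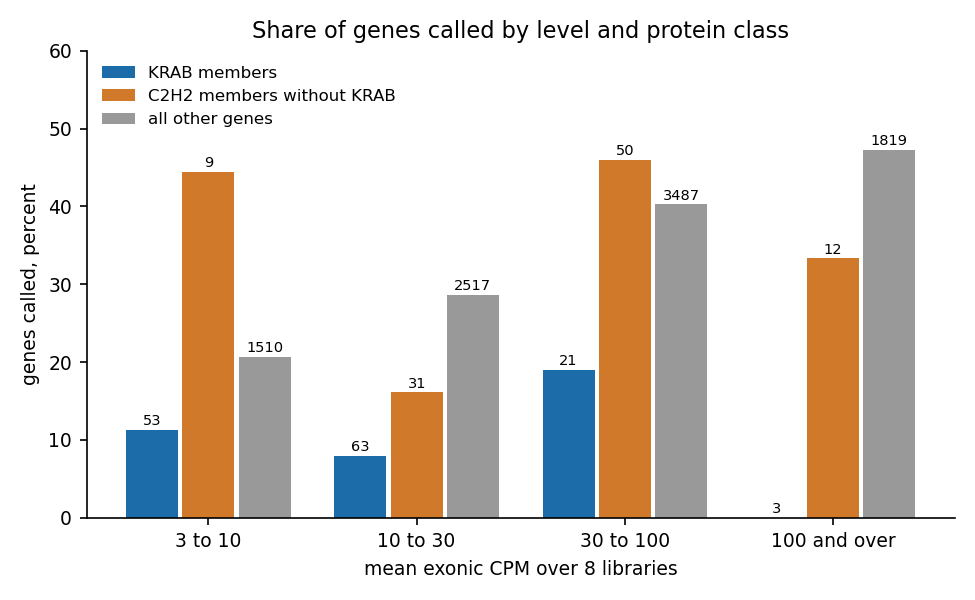
Share of genes that passed an adjusted p of 0.05 in exonic reads (percent, vertical axis) by mean exonic level (CPM, horizontal axis), for KRAB members, C2H2 members without KRAB and all other genes; the number of genes stands on each bar. The KRAB bar is the lowest of the 3 in every range of level, and it is at 0 for the 3 KRAB members of 100 CPM and over.

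Of the members with CCCH fingers, the family of RNA decay factors, Zfp36 and Zfp36l1 fell and Zfp36l2 was slightly higher. Zfp36 (tristetraprolin, ENSMUSG00000044786.6, chromosome 7, 28376784 to 28380253, minus strand, GRCm38) was at 40.3, 43.9, 42.4 and 39.5 exonic CPM in the 4 libraries given DMSO and at 28.1, 27.3, 28.1 and 24.8 CPM in the 4 treated ones. Every treated library was below every control library, with a log2 change of -0.62 (SE 0.05, adjusted p = 9.1e-10). No read of Zfp36 was counted as intronic in any library, so its unspliced RNA was not measured.

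Zfp36l1 (ENSMUSG00000021127.6, chromosome 12, 80107754 to 80113013, minus strand), the member with the most exonic reads per kilobase of exon, was at 223, 237, 217 and 235 CPM in DMSO and 197, 192, 189 and 186 CPM after dTAG-13. The groups did not overlap (log2 change -0.26, SE 0.04, adjusted p = 5.0e-06). Its intronic reads were at 46.2, 50.3, 43.6 and 43.3 intronic CPM in DMSO and 31.3, 29.4, 33.5 and 30.4 after dTAG-13, a log2 change of -0.56 (adjusted p = 7.2e-05), and these groups did not overlap either. Zfp36l2, second in reads per kilobase, was at 185, 184, 184 and 191 CPM in DMSO and 209.5, 209.6, 201 and 187 CPM after dTAG-13. Its groups overlapped, since the fourth treated library lay within the control range, and its log2 change of 0.12 (adjusted p = 0.028) lost the threshold without DMSO replicate 1, 2 or 3 (adjusted p = 0.062, 0.063 and 0.062) or dTAG-13 replicate 1 or 2 (0.075 and 0.12), and in whole-gene counts (0.11). Zfp36l3, the last gene of the family, had no exonic read in any library. A count of 0 in the shallowest library allows up to 0.104 CPM, counting error alone considered.

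Among the other genes that fell most, Zfp874a and Zfp874b are neighbouring KRAB genes on chromosome 13. Zfp874a (ENSMUSG00000069206.13, 67424549 to 67451624, minus strand) was at 5.22, 4.90, 3.94 and 4.33 exonic CPM in DMSO and 2.69, 2.25, 3.19 and 2.69 CPM after dTAG-13, the largest fall of any member (log2 change -0.76, SE 0.16, adjusted p = 6.9e-04). Its intronic reads were few and their groups overlapped (log2 change -0.51, adjusted p = 0.31). Zfp874b (67471513 to 67484258) was at 9.05, 10.5, 10.3 and 11.03 CPM in DMSO and 8.81, 6.66, 8.18 and 8.32 CPM after dTAG-13, without overlap (log2 change -0.36, SE 0.10, adjusted p = 0.0098). Intronic reads of Zfp874b fell as well (log2 change -0.62, adjusted p = 0.026), a call lost without DMSO replicate 3 or 4 (adjusted p = 0.055 and 0.14) or dTAG-13 replicate 2 (0.082). The transcripts of these genes shared 7.79% and 13.5% of their 50-base words with other genes, mainly with each other, and reads from those stretches cannot be told apart.

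Zfp566, a KRAB gene on chromosome 7 (30077337 to 30090527, minus strand), was at 3.87, 3.83, 4.51 and 4.87 exonic CPM in DMSO and 2.83, 2.83, 2.65 and 2.94 CPM after dTAG-13 (log2 change -0.61, SE 0.16, adjusted p = 0.0039). Its intronic level was higher than its exonic one on the CPM scale of each read class, at 29.4, 31.9, 33.6 and 28.7 in DMSO and 20.1, 19.7, 22.4 and 22.6 after dTAG-13 (log2 change -0.54, adjusted p = 6.0e-04). In both read classes every treated library was below every control library. Of its 50-base words 15.6% are shared, mainly with Gm26920, which overlaps its exons on the same strand.

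Zfp367, a C2H2 gene without KRAB on chromosome 13 (64133018 to 64153202, minus strand), stood at 69.8, 60.4, 64.8 and 62.9 exonic CPM in DMSO and 53.1, 44.7, 45.5 and 48.5 CPM after dTAG-13. The fall was seen in exonic (log2 change -0.43, SE 0.05, adjusted p = 3.5e-07) and intronic reads (-0.47, adjusted p = 4.3e-05), with groups apart in both.

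Zfp608 and Zfp609 are paralogs, large proteins without KRAB, and ZFP608 is known as a repressor of the Rag genes in thymocytes. Zfp608 was at 84.7, 80.2, 76.8 and 80.9 exonic CPM in DMSO and 63.9, 60.5, 59.9 and 62.1 CPM after dTAG-13 (log2 change -0.39, SE 0.04, adjusted p = 2.7e-08). Zfp609 was at 89.8, 84.3, 87.6 and 91.6 CPM in DMSO and 74.95, 71.5, 78.98 and 73.5 CPM after dTAG-13 (log2 change -0.24, SE 0.04, adjusted p = 4.7e-05). In exonic reads both paralogs had every treated library below every control library. Intronic reads fell in both, by 0.30 and 0.27 on the log2 scale (adjusted p = 0.0060 and 0.0075). The intronic groups did not overlap in Zfp608, but they overlapped in Zfp609. Zfp609 lay outside the rule for named genes and was added, after its values were seen, as the paralog of Zfp608.

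The remaining falls of the 10 largest were Zfp239, Zfp956, Zfp664 and Zfp407. Zfp239, whose protein (MOK2) binds DNA and RNA, was at 14.7, 13.02, 13.7 and 12.9 CPM in DMSO and 10.1, 10.4, 11.9 and 9.86 CPM after dTAG-13 (log2 change -0.36, adjusted p = 0.0021). Its intronic change was -0.64 (adjusted p = 0.013), the largest intronic fall of a member that passed the test, and it lost the threshold without dTAG-13 replicate 4 (adjusted p = 0.055). Zfp664 was at 109, 106, 95.9 and 110.1 CPM in DMSO and 88.2, 82.3, 85.7 and 82.3 CPM after dTAG-13 (log2 change -0.31, adjusted p = 2.3e-06), with an intronic change of -0.32 (adjusted p = 0.011). Zfp407 had a log2 change of -0.27 in exonic (adjusted p = 4.6e-04) and -0.33 in intronic reads (adjusted p = 0.017). In Zfp239, Zfp664 and Zfp407 the exonic levels of the groups did not overlap.

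Of the members, Zfp831 rose the most. This C2H2 gene without KRAB (ENSMUSG00000050600.5, chromosome 2, 174643534 to 174710832, plus strand) was at 10.2, 12.5, 11.3 and 12.2 exonic CPM in DMSO and 20.8, 20.1, 18.1 and 18.9 CPM after dTAG-13. The lowest treated library was above the highest control library (log2 change 0.75, SE 0.08, adjusted p = 2.6e-08). Intronic reads rose too, being at 45.6, 45.4, 42.9 and 48.1 CPM in DMSO and 62.5, 60.9, 61.2 and 80.7 CPM after dTAG-13 (log2 change 0.55, adjusted p = 1.0e-04).

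Zfp710, without KRAB and on chromosome 7 (80024814 to 80094173, plus strand), was at 37.4, 34.7, 33.7 and 39.4 exonic CPM in DMSO and 56.9, 57.5, 57.4 and 50.99 CPM after dTAG-13. The fourth treated library was the lowest of its group and still above all controls (log2 change 0.62, SE 0.05, adjusted p = 4.8e-10). Its intronic change was 0.42 (adjusted p = 2.0e-04). Zfp629, also without KRAB, was at 15.3, 14.2, 14.6 and 15.04 exonic CPM in DMSO and 20.3, 23.98, 22.95 and 21.2 CPM after dTAG-13 (log2 change 0.58, SE 0.07, adjusted p = 2.8e-07). It had few intronic reads, between 0.71 and 4.67 CPM, and their change did not pass the test (1.04, adjusted p = 0.11).

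Zfp385a encodes a zinc finger protein that binds RNA and is known as a partner of p53. It was at 4.49, 4.32, 3.55 and 4.54 exonic CPM in DMSO and 6.55, 5.82, 6.05 and 5.32 CPM after dTAG-13 (log2 change 0.49, SE 0.13, adjusted p = 0.0052). Its intronic reads were at 2.16, 4.29, 4.29 and 2.61 CPM in DMSO and 9.74, 5.47, 8.50 and 9.01 CPM after dTAG-13, the largest intronic rise of any member (1.28, adjusted p = 8.2e-04). Treated and control libraries were apart in both read classes.

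Zfp523, the mouse counterpart of ZNF76 and a relative of Zfp143, was at 13.2, 12.7, 12.9 and 11.98 exonic CPM in DMSO and 16.7, 19.2, 16.6 and 17.1 CPM after dTAG-13 (log2 change 0.46, adjusted p = 3.2e-05). Its intronic change was 0.58 (adjusted p = 7.1e-04). Its relative Zfp143 was at 24.4 ± 0.614 CPM (SD, n = 4) in DMSO and 24.3 ± 0.911 CPM (SD, n = 4) after dTAG-13 (log2 change -0.00, adjusted p = 0.98). The KRAB genes Zfp287 and Zfp715 rose by 0.51 and 0.39 on the log2 scale (adjusted p = 0.0050 and 6.6e-06), with groups that did not overlap. Their intronic changes of 0.26 and 0.22 did not pass the test (adjusted p = 0.32 and 0.15).

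**Figure D3:**
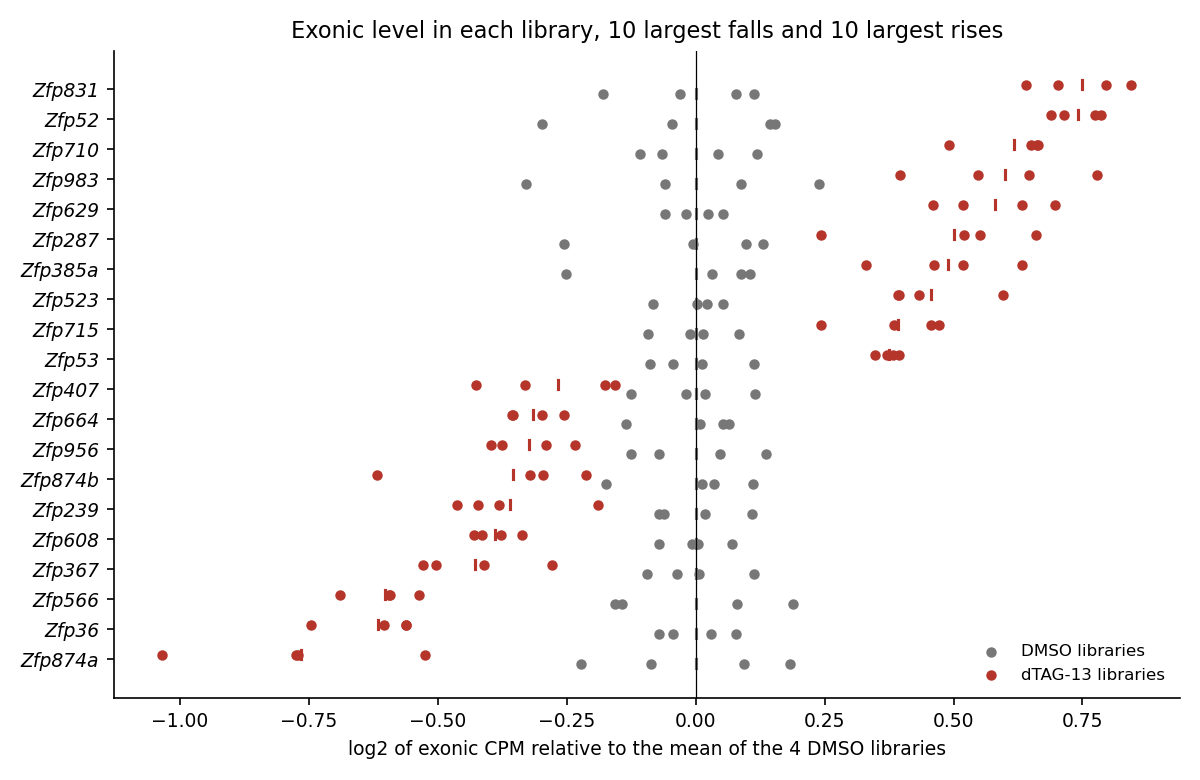
Exonic level of each of the 8 libraries on the log2 scale, relative to the mean of the 4 DMSO libraries of that gene, for the 10 largest rises and the 10 largest falls; points are libraries and ticks group means. In all 20 genes the red dTAG-13 points lie on 1 side of the grey DMSO points, as the rule for choosing these genes required.

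EBF1 is known to bind a palindrome with the core CCCNNGGG, where N is any base, which in its longer form has a T before and an A after the core. RefSeq promoter windows on GRCm38.p6, from 250 bases before to 50 bases after the gene's start, were found for 208 of the 248 members. RefSeq's start can differ from that of the GENCODE coordinates given for the genes. The core, which reads the same on both strands and is part of the longer form, was in the window of 35 members (16.8%) and of 15.4% of all 27025 genes with a window. It was in 3 of the 19 members with a window that fell (Zfp664, Zfp777 and Zfp280c) and in 3 of the 23 that rose (Zfp217, Zfp628 and Zfp385a). The longer form was in 1.06% of all windows and in 1 member, Zfp664. These shares were near the background, and a match says nothing of whether EBF1 binds there. In Zfp777, Zfp280c and Zfp628 the intronic change did not pass the test. The windows shown, with the core in capitals, are those of Zfp664, Zfp217 and Zfp385a, which hold the core and changed in both read classes. They lie at chr5:124862455-124862754 (plus strand), chr2:170131171-170131470 (minus strand) and chr15:103340037-103340336 (minus strand), and are written along the gene from 5′ to 3′.
Zfp664: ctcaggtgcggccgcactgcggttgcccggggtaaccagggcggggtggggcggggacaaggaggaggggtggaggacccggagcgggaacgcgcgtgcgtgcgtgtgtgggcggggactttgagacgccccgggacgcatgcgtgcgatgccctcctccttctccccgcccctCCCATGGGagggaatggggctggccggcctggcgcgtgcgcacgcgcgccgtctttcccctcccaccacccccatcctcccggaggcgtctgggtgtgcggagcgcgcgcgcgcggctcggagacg
Zfp217: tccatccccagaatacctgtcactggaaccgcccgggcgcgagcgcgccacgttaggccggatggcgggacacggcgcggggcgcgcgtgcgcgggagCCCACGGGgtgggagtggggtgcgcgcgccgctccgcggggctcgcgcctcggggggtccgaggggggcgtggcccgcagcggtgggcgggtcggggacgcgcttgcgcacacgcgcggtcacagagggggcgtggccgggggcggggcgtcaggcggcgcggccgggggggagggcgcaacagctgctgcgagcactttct
Zfp385a: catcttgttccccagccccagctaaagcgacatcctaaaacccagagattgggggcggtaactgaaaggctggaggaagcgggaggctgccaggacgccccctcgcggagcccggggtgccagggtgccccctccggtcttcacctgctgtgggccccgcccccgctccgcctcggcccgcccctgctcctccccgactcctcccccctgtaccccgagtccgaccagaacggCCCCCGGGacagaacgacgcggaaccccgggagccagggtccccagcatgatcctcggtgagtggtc
The first base of the core is 76 bases before the start in Zfp664, which fell in both read classes. It is 152 bases before the start in Zfp217 and 17 bases before it in Zfp385a, which both rose in both read classes.

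Many members lie in clusters. With members joined where the gap between them was at most 500 kb, 13 clusters of at least 4 members held 107 of the 248, and 17 of these 107 (15.9%) changed in exonic reads, while 37 of the other 141 (26.2%) did. Both shares were below the 35.0% of all genes at the floor or above, of which 17.7% were lower and 17.3% higher. In 5 clusters no member changed in exonic reads, and in 1 of these, on chromosome 9 from 20345136 to 20605409, Zfp266 fell in intronic reads.

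The cluster of chromosome 17 from 21008903 to 23564238 held 18 members, 17 of them KRAB genes. None was lower and 4 (22.2%) were higher in exonic reads (Zfp54, Zfp53, Zfp52 and Zfp983), against 17.3% higher among all genes at the floor or above. A positive exonic change was seen in 17 of the 18 (94.4%), with a median of 0.12, against 48.7% of those genes. In intronic reads none was lower and 4 (22.2%) were higher (Zfp54, Zfp53, Zfp948 and Zfp983), against 8.62% higher among all genes at the floor, and 17 of 18 were positive with a median of 0.15, against 47.9% positive. Among all KRAB members, 86 of 140 were positive in exonic and 86 of 139 in intronic reads. The cluster is 1 of 13, and the other listed cluster of chromosome 17 had 5 of 9 members positive in exonic reads. None of these shares was tested. All genes of the larger cluster that rose lay within 21423227 to 21664966, a stretch of 6 members in the order Zfp54, Zfp51, Zfp53, Zfp52, Zfp948 and Zfp983, all on the plus strand. The only other gene tested in the stretch was 9330136K24Rik, at 0.353 CPM (log2 change -0.12, adjusted p = 0.88), which overlaps Zfp52 on the opposite strand.

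Zfp52 (21535539 to 21562601) was at 8.60, 11.8, 11.7 and 10.2 exonic CPM in DMSO and 18.2, 17.3, 17.1 and 18.1 CPM after dTAG-13 (log2 change 0.74, SE 0.09, adjusted p = 1.9e-07). Its intronic change of 0.48 did not pass the test (adjusted p = 0.063). Zfp53 (21488998 to 21510473) was the most abundant of the stretch, at 45.5, 43.8, 48.8 and 42.4 exonic CPM in DMSO and 57.4, 58.4, 58.8 and 59.3 CPM after dTAG-13 (log2 change 0.37, SE 0.05, adjusted p = 3.4e-07). Its intronic reads were at 179, 179, 179 and 167 CPM in DMSO and 222, 214, 213 and 221 CPM after dTAG-13 (log2 change 0.30, adjusted p = 4.1e-04). The treated libraries of Zfp53 were above its controls in both read classes.

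Zfp983 (21650624 to 21664966) was at 7.40, 8.22, 6.68 and 5.54 exonic CPM in DMSO and 11.9, 9.16, 10.2 and 10.9 CPM after dTAG-13 (log2 change 0.61, SE 0.12, adjusted p = 1.8e-04). Its intronic change was 0.57 (adjusted p = 0.014), lost without dTAG-13 replicate 4 (adjusted p = 0.052). Of its 50-base words 9.83% are shared with other genes. Zfp54 (21423227 to 21435640) was at 8.02, 5.39, 7.25 and 7.68 exonic CPM in DMSO and 9.16, 8.32, 8.13 and 10.4 CPM after dTAG-13 (log2 change 0.34, adjusted p = 0.034), and the groups were close, with the lowest treated library just above the highest control. This exonic call was lost without DMSO replicate 2 or 3 (adjusted p = 0.15 and 0.056) or dTAG-13 replicate 1 or 4 (0.059 and 0.12). Its intronic reads stood further apart, at 11.3, 10.7, 12.7 and 12.9 CPM in DMSO and 17.9, 22.6, 20.9 and 17.5 CPM after dTAG-13 (log2 change 0.72, adjusted p = 3.9e-04), and no alternative run ended that call.

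Zfp948, the neighbour of Zfp52, was at 3.21, 1.83, 3.29 and 2.97 exonic CPM in DMSO and 3.59, 3.802, 4.02 and 4.29 CPM after dTAG-13. Its exonic change of 0.47 missed the threshold (SE 0.18, adjusted p = 0.053) and passed it under several alternatives, DESeq2 among them (adjusted p = 0.033). The intronic reads of Zfp948 rose, being at 21.1, 19.3, 20.2 and 24.8 CPM in DMSO and 30.05, 32.2, 26.6 and 32.2 CPM after dTAG-13 (log2 change 0.50, adjusted p = 0.0022). Zfp51, between Zfp54 and Zfp53, was at 14.6, 16.7, 15.97 and 14.4 exonic CPM in DMSO and 15.5, 17.7, 15.6 and 15.98 CPM after dTAG-13, with overlapping groups (log2 change 0.07, adjusted p = 0.54, and 0.18 with an adjusted p of 0.28 in intronic reads). The rise along the stretch was thus not shared by every gene in it at the threshold used.

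Promoter windows of this stretch, found for all of its members but Zfp51, were compared in sequence. Aligned in pairs, gaps counted, the windows of Zfp52, Zfp53, Zfp54, Zfp948 and Zfp983 were 41.6% (Zfp52 with Zfp983) to 64.6% (Zfp53 with Zfp983) identical, and no such value was computed for other windows. No run of at least 8 letters was found in all 5 windows, and 2 runs of 10 bases were each found in 4 of them. GAGTGGGAGG was in those of Zfp52, Zfp53, Zfp948 and Zfp983 and in 87 of the 27025 windows (0.322%). Of its 87 genes 30 were tested in exonic reads, and 5 were lower and 8 higher (43.3%), against 28.3% of all genes tested. Zfp52, Zfp53 and Zfp983, from whose windows the run was taken, are among the 8, so this share partly restates them. It was not tested. AGCCTGAGAC was in the windows of Zfp52, Zfp53, Zfp54 and Zfp948 and absent from that of Zfp983. This rarer run was picked after the values were seen, it matches no motif named here, and 18 of the 27025 windows (0.0666%) held it on the gene's own strand. Of those 18 genes, 6 were tested in exonic reads: the 4 of this stretch, 9930021J03Rik (log2 change 0.14, adjusted p = 0.012) and H1f2 (-0.09, adjusted p = 0.20). The windows with the rarer run are shown with it in capitals, along the plus strand of chromosome 17, at chr17:21422977-21423276, chr17:21488738-21489037, chr17:21535289-21535588 and chr17:21566728-21567027.
Zfp54: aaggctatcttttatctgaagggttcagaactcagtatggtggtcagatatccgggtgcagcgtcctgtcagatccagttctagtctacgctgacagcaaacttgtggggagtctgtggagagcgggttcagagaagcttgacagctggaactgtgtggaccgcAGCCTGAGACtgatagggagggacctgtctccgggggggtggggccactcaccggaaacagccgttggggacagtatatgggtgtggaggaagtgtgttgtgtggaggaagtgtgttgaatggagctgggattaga
Zfp53: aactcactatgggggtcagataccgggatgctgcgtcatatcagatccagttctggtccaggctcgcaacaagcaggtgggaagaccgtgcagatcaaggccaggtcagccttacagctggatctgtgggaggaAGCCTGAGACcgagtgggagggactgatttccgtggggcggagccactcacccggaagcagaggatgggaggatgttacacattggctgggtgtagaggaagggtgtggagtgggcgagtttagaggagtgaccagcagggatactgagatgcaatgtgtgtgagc
Zfp52: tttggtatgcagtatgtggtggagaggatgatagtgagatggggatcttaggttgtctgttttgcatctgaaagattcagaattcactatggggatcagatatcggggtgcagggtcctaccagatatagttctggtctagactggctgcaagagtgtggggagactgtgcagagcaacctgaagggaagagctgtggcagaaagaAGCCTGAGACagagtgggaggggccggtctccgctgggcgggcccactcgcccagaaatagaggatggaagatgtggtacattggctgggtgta
Zfp948: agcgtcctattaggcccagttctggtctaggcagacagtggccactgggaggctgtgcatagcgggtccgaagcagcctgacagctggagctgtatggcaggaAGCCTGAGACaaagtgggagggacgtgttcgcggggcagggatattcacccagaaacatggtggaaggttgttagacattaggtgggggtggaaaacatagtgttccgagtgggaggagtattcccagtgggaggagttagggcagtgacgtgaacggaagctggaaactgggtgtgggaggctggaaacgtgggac
The run in capitals starts 86, 116, 44 and 147 bases before the start of Zfp54, Zfp53, Zfp52 and Zfp948.

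**Figure D4:**
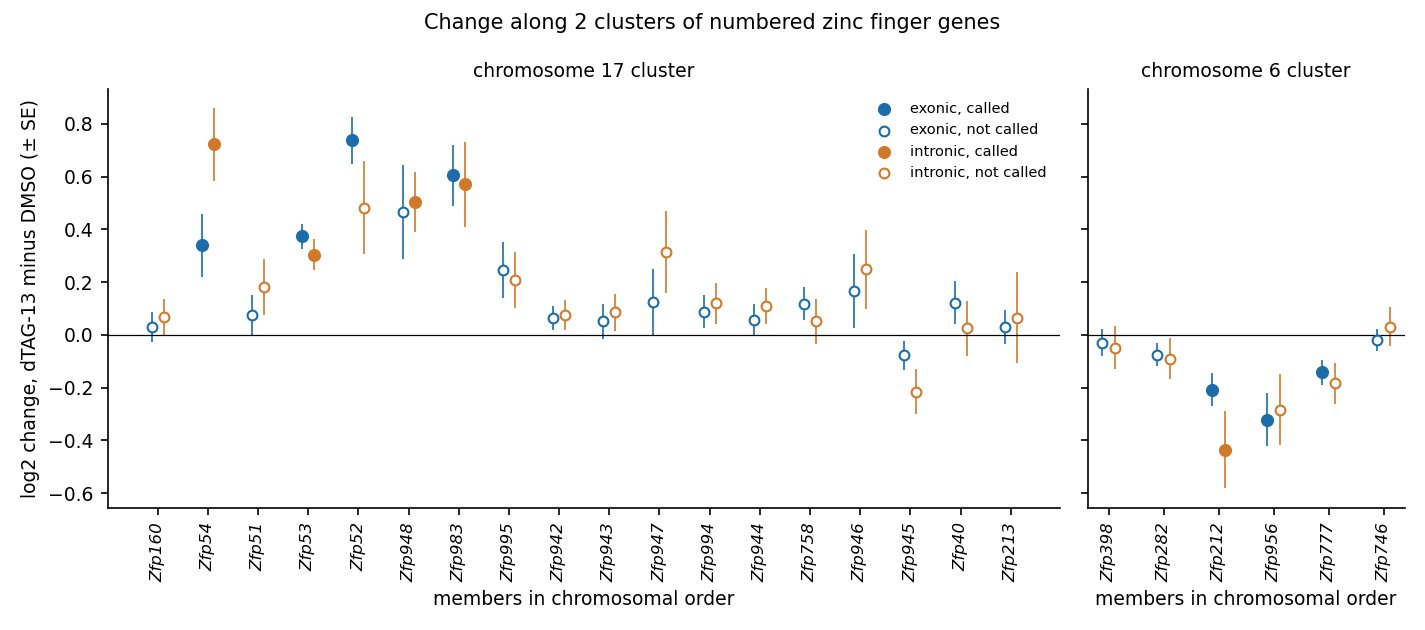
Log2 change (dTAG-13 minus DMSO, ± SE) of each member of the chromosome 17 and chromosome 6 clusters in chromosomal order, in exonic (blue) and intronic (orange) reads; filled points passed an adjusted p of 0.05. The filled points of chromosome 17 are all above 0 and lie from Zfp54 to Zfp983, and those of chromosome 6 are all below 0.

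On chromosome 6, from 47835661 to 48086593, 3 of 6 members fell and all 6 had a negative exonic change, with a median of -0.11. Among all genes at the floor or above, 17.7% fell and 51.3% had a negative change. With 6 members these shares are coarse, and they were not tested. Zfp212, a KRAB gene, was at 28.1, 25.3, 25.4 and 27.1 exonic CPM in DMSO and 23.5, 23.6, 23.9 and 20.7 CPM after dTAG-13 (log2 change -0.21, adjusted p = 0.013), and its intronic change was -0.44 (adjusted p = 0.043). Zfp956 was at 8.92, 10.3, 8.58 and 9.68 exonic CPM in DMSO and 7.97, 7.12, 7.22 and 7.66 CPM after dTAG-13 (log2 change -0.32, adjusted p = 0.016), and it lost the threshold without DMSO replicate 2 (adjusted p = 0.061). Zfp777 was at 47.1, 51.3, 49.3 and 52.5 CPM in DMSO and 46.8, 47.02, 43.6 and 44.04 CPM after dTAG-13, a change of -0.14 (adjusted p = 0.023). In all 3 the groups did not overlap, although in Zfp777 the highest treated library was just under the lowest control. Zfp212 and Zfp777 were outside the rule for named genes and are given, after their values were seen, because the count of this cluster rests on them.

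In the chromosome 13 cluster that holds Zfp874a and Zfp874b, 67038596 to 67827002, these were the only 2 of 17 members to change, and 9 of the 17 had a positive value. Of all genes at the floor or above, 35.0% changed, 17.3% were higher and 48.7% had a positive value. On chromosome 9, from 22055411 to 22307648, 2 of 4 members rose, a coarse share that was not tested. One was Zfp809, a KRAB protein known for silencing murine leukemia viruses through their proline primer binding site, at 25.6, 25.2, 30.9 and 28.4 exonic CPM in DMSO and 32.2, 31.7, 31.4 and 31.1 CPM after dTAG-13 (log2 change 0.19, adjusted p = 0.017). The call was lost without DMSO replicate 1 or 2 (adjusted p = 0.070 and 0.074), the 2 lowest controls. The other was Zfp810, at 17.2, 14.2, 16.1 and 14.5 CPM in DMSO and 16.5, 19.8, 19.99 and 20.01 CPM after dTAG-13, with overlapping groups (log2 change 0.30, adjusted p = 0.0054).

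Roles known for single members were grouped in lists. Of the 58 genes on these lists, 44 were members and 15 of the 44 (34.1%) changed, a share near the 35.0% of all genes at the floor or above, and of the 204 members on no list 39 (19.1%) did. The lists were small and were drawn up with earlier results of these data known, and none of their shares was tested against other genes. Zfp521 and Zfp423, the partners of EBF1, were both below the floor. Zfp521 had no exonic read in any library, and Zfp423 averaged 0.131 CPM and was not tested in exonic reads.

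Of 12 genes listed for silencing of retroelements or control of imprinted loci, 6 were members, and 1 (16.7%), Zfp809, was higher. Among all genes at the floor or above 17.3% were higher. Zfp445, known for keeping imprints, was at 52.4 ± 0.621 CPM (SD, n = 4) in DMSO and 52.8 ± 3.38 CPM (SD, n = 4) after dTAG-13 (log2 change 0.01, SE 0.05, adjusted p = 0.91). Zfp568, a repressor of a placental promoter of Igf2, had a log2 change of -0.07 (adjusted p = 0.26), and Zfp932, a repressor of endogenous retroviruses, one of 0.06 (adjusted p = 0.71). The median over the 6 was 0.04. These 6 include Zfp277 (log2 change -0.12, adjusted p = 0.29), whose place on the list is uncertain. Zfp57, Zfp42, Zfp819, Zfp708, Zfp459 and Zfp759 were below the floor. Of these, Zfp708 averaged 0.0353 exonic CPM and was not tested in exonic reads, but its intronic reads rose from 9.90 ± 0.964 to 13.7 ± 1.60 CPM (SD, n = 4 each; log2 change 0.47, adjusted p = 0.037). It shares 94.9% of its 50-base words with other genes, mainly Gm28557, and its exons overlap Gm28557 and Rslcan18 on the same strand, so its reads are uncertain.

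Of 9 members that act on RNA or ribosomes, 3 fell and 1 rose (44.4%), with a median of -0.07. Among all genes at the floor or above 35.0% changed, and with 9 members the share is coarse. Zfp598, a ubiquitin ligase that marks collided ribosomes, was at 107, 113, 109 and 107 CPM in DMSO and 94.6, 107, 100.5 and 98.2 CPM after dTAG-13 (log2 change -0.12, adjusted p = 0.022). Zfp106, an RNA-binding protein and the member with the most exonic CPM, was at 336, 336, 329 and 320.0 CPM in DMSO and 311, 292, 307 and 308 CPM after dTAG-13 (log2 change -0.12, adjusted p = 0.012). Zfp593, a factor of large ribosomal subunit assembly, was at 18.1, 20.9, 17.8 and 19.7 CPM in DMSO and 16.2, 17.6, 15.9 and 15.9 CPM after dTAG-13 (log2 change -0.22, adjusted p = 0.024). These falls were small, and each lost the threshold in whole-gene counts (adjusted p = 0.12, 0.11 and 0.077). Zfp598 also lost it without DMSO replicate 2 (adjusted p = 0.080) or dTAG-13 replicate 1 or 4 (0.077 and 0.053), Zfp106 without dTAG-13 replicate 2 (0.067), and Zfp593 without DMSO replicate 2 or 4 (0.0997 and 0.066) or dTAG-13 replicate 3 or 4 (0.066 and 0.059). The rise was that of Zfp385a. Zfp622, which also serves the large ribosomal subunit, had a log2 change of -0.07 (adjusted p = 0.56).

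Of 22 members that act on chromatin or as general promoter factors, 2 fell and 4 rose (27.3%), with a median of 0.05. This share was below the 35.0% of all genes at the floor or above. Zfp217, a partner of CoREST and CtBP corepressors, was at 56.99, 62.1, 59.8 and 59.4 exonic CPM in DMSO and 70.6, 71.3, 72.3 and 67.96 CPM after dTAG-13 (log2 change 0.24, SE 0.04, adjusted p = 3.8e-05), and rose in intronic reads by 0.32 (adjusted p = 0.0023). Zfp518a was at 61.96, 58.4, 59.1 and 58.95 CPM in DMSO and 76.8, 67.5, 71.6 and 71.9 CPM after dTAG-13 (log2 change 0.27, SE 0.04, adjusted p = 1.9e-05). Zfp335, a coregulator needed for lymphocyte development, had a change of 0.13 (adjusted p = 0.026), lost without DMSO replicate 1 or 2 (adjusted p = 0.12 and 0.065) or dTAG-13 replicate 4 (0.066). Zfp516 had one of 0.31 with overlapping groups (adjusted p = 0.0497), which was lost in whole-gene counts (adjusted p = 0.55) and in 6 of the 8 fits that left out a library (0.067 to 0.15, all but those without DMSO replicate 2 or dTAG-13 replicate 3).
The falls of this list were Zfp407 (log2 change -0.27) and Zfp280c, at 54.3, 52.4, 56.04 and 53.2 CPM in DMSO and 49.2, 46.7, 45.8 and 52.3 CPM after dTAG-13 (log2 change -0.16, adjusted p = 0.012), lost without dTAG-13 replicate 3 (adjusted p = 0.055). Well expressed members that did not pass include Zfp148 (-0.05, adjusted p = 0.34), Zfp292 (0.00, adjusted p = 0.99), Zfp592 (0.05, adjusted p = 0.39) and Zfp281 (-0.02, adjusted p = 0.78).

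Of 4 members listed under ubiquitination or the spindle, 1 (25%) was higher, against 17.3% of all genes at the floor or above. This was Zfp91, a ubiquitin ligase of the non-canonical NF-κB pathway. It was at 201, 204, 188 and 202 CPM in DMSO and 221, 213, 213 and 216 CPM after dTAG-13 (log2 change 0.12, adjusted p = 0.013), lost without DMSO replicate 3 (adjusted p = 0.073) and in whole-gene counts (0.091). Zfp207 (BuGZ), which helps chromosomes align on the spindle, was at 237 ± 4.65 CPM (SD, n = 4) in DMSO and 234 ± 9.27 CPM (SD, n = 4) after dTAG-13 (log2 change -0.02, adjusted p = 0.75).

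The proteins through which KRAB zinc fingers act were taken from a list of 31 genes, 29 of them tested. In exonic reads 3 were lower and 5 higher (27.6%), a share below the 35.0% of all genes at the floor or above. In intronic reads also 3 were lower and 5 higher (27.6%), above the 18.0% of those genes in that read class. The tested genes of the list had a median exonic level of 95.6 CPM, against 36.3 CPM for all genes at the floor or above. Their shares were not compared with those of genes of like level, and no difference was tested. The median log2 changes were -0.02 and -0.03. Trim28 itself was at 480 ± 10.4 CPM (SD, n = 4) in DMSO and 466 ± 17.2 CPM (SD, n = 4) after dTAG-13 (log2 change -0.04, SE 0.04, adjusted p = 0.40), and Setdb1 had a change of -0.05 (adjusted p = 0.39). The largest changes of the list were in Uhrf1, which reads half-methylated DNA and guides DNMT1, from 633 ± 19.0 to 474 ± 42.2 CPM (SD, n = 4 each; log2 change -0.42), its relative Uhrf2, from 132 ± 4.67 to 173 ± 5.37 CPM (0.39), and Chd3, a NuRD remodeller, from 232 ± 7.27 to 309 ± 5.80 CPM (0.41). Atf7ip, the partner of SETDB1, rose from 157 ± 5.36 to 195 ± 3.48 CPM (0.31). These 4 genes were named as those of the list with the smallest p. Morc3, outside that rule, rose more than Atf7ip (0.37, adjusted p = 2.2e-07). In Uhrf1, Uhrf2, Chd3 and Atf7ip the intronic change passed the test in the same direction (-0.40, 0.29, 0.45 and 0.28), and the adjusted p of these 4 genes in exonic reads ran from 4.2e-10 in Chd3 to 1.3e-07 in Atf7ip.

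Intronic reads, counted as reads on the whole gene minus reads on exons, come mostly from unspliced RNA and were not used by the rule. Of the 248 members 238 were tested in them and 10 had too few. Of the 238, 26 (10.9%) changed, 13 lower and 13 higher. Over all 11229 genes tested the share was 16.8%, with 8.50% lower and 8.26% higher, and among the 8825 of these past the exonic floor it was 18.0%, with 9.41% lower and 8.62% higher. The members' share was thus again below the background. By class, 4 KRAB genes fell and 7 rose of 139, and 8 of the other C2H2 genes fell and 6 rose of 96. The count of 13 falls became 7 without DMSO replicate 1 and 8 without dTAG-13 replicate 2.

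Changes in both read classes ran in the same direction for most members that changed. Of 51 members that changed in exonic reads and were tested in intronic ones, 48 had the same sign, and 23 passed in both, 11 lower and 12 higher. Exonic and intronic change correlated over the 238 members with a Pearson r of 0.68 and a Spearman rho of 0.58. No such counts or correlations over all genes are given here, so this agreement cannot be called particular to the members. The reads of both classes come from the same libraries, and members are not independent replicates. The 3 with opposite signs were Zfp553, Zfp628 and Zfp516, with intronic changes of 0.40, -0.05 and -0.03 that did not pass the test (adjusted p = 0.48, 0.92 and 0.91).

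Intronic reads alone changed in 3 members, Zfp948, Zfp266 and Zfp451, which are named after their values were seen. Zfp266 was at 145, 128, 141 and 136 intronic CPM in DMSO and 113, 109, 121 and 123 after dTAG-13 (log2 change -0.24, adjusted p = 0.012), with an exonic change of 0.02 (adjusted p = 0.75). Zfp451 fell in intronic reads by 0.21 on the log2 scale (adjusted p = 0.028), with an exonic change of -0.02 (adjusted p = 0.71). A test of the difference itself, the read class by treatment term of 1 edgeR model, found none of the 238 members past an adjusted p of 0.05, while 32 of 10026 genes (0.319%) passed it. The smallest adjusted p of a member was 0.15, in Zfp36l1, whose fall was smaller in exonic than in intronic reads, the difference being 0.30 on the log2 scale. At an unadjusted p below 0.05 there were 12 members (5.04%), against 7.78% of all genes. No other tool was run for this difference, and a p above the threshold does not show that the changes were equal.

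**Figure D5:**
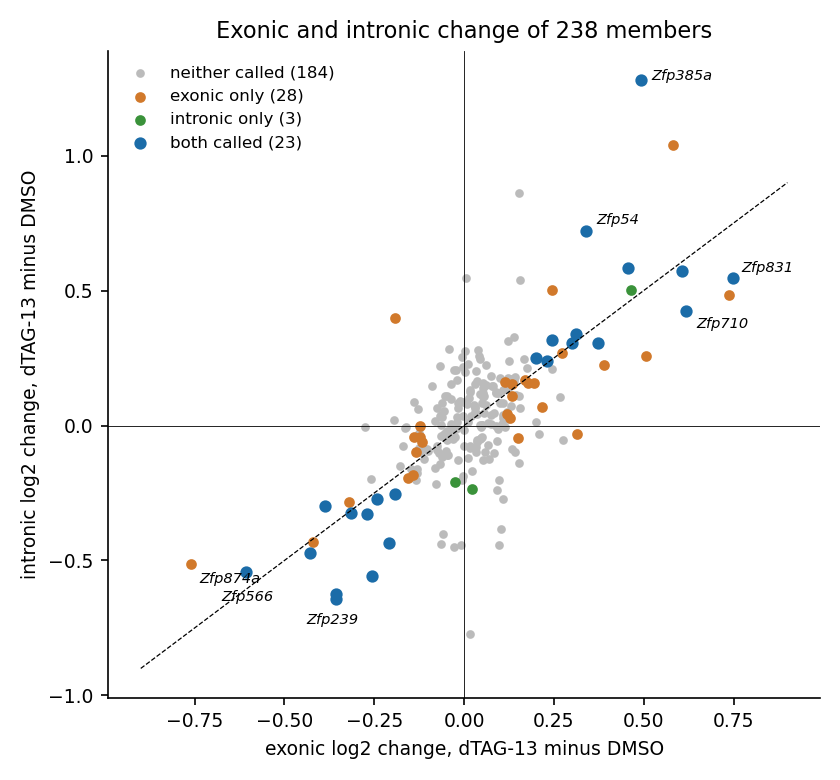
Exonic (horizontal) against intronic (vertical) log2 change, dTAG-13 minus DMSO, of the 238 members tested in both; colours give the read class in which a member passed an adjusted p of 0.05 and the dashed line marks equal change. The 23 members that passed in both lie in the lower left and upper right, and no member passed the test of the difference from the line.

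The authors' deposited table, made with DESeq2, has an adjusted p below 0.05 for 53 of the members in exonic reads, 23 lower and 30 higher, of which 52 are among the 54 found here and in the same direction. In intronic reads the authors' deposited table has 23, 10 lower and 13 higher, and all 23 were found here too. Of the 54 members that changed in exonic reads, 24 (44.4%) have an exon that overlaps a gene on the opposite strand and 8 (14.8%) one on the same strand. Over all 248 members these were 68 (27.4%) and 25 (10.1%), so such overlaps were more frequent among the members that changed, a difference that was not tested. The strand setting of the counting is not given, so reads of such pairs may not be told apart. Of the 248 members, 21 share more than 20% of their 50-base words with another gene, and 1 of these changed, Zfp617 (41.5%, mainly with Gm18180), whose value is uncertain. Zfp617 and its neighbour Zfp961 on chromosome 8, both KRAB genes, rose by 0.31 and 0.20 in exonic (adjusted p = 0.0018 and 0.0058) and by 0.34 and 0.25 in intronic reads (adjusted p = 0.014 and 0.010). They were named after their values were seen. Tested against a 1.2-fold change, 11 of the 54 exonic changes passed, 4 lower and 7 higher. The share of all genes that passes this stricter test is not given here, so the count cannot be called low or high.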

How the data were processed

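RNA of 8 libraries, 4 per group by their titles and treatment labels, was sequenced after ribosomal RNA depletion with strand kept, per the labels' protocols. Raw read counts of each gene, 1 set over exons and 1 over the whole gene, were deposited, per the labels and the design text. Among the tools of the submitters' processing notes are featureCounts of Subread 2.0.0, STAR 2.7.4a and DESeq2, with the builds GRCm38.p4 and mm10. Strand setting and annotation release are not given in the sources used here. The authors' deposited DESeq2 table holds log2 fold changes and p-values per gene, per the file headers.

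Intronic counts were whole-gene minus exon counts, and none was negative. Each read class was fitted in edgeR 4.0.16 under R 4.3.3 (quasi-likelihood F test, TMM, filterByExpr with minimum count 10 and total 15, treatment as the only term), with Benjamini-Hochberg adjustment over all genes tested and a threshold of 0.05. Their difference was tested as an interaction with the library as a block. All 248 members passed the exonic filter and 238 the intronic one, and the lowest member had 53 exonic reads in a library. CPM are shares of a library, so a change in total RNA would not be seen. Coordinates and proteins came from GENCODE M21 (GRCm38) and promoters from RefSeq (GRCm38.p6). C2H2 fingers were found by pattern, and KRAB domains by a pyhmmer 0.12.3 profile built from 134 windows found by pattern (E-value at most 0.001), so a diverged KRAB domain can be missed.

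Named were the 10 largest exonic falls and rises past the threshold whose groups do not overlap, the 5 largest in intronic reads, members of the role lists, those next to the floor, the 5 highest per kilobase, up to 4 KRAB cofactors with the smallest p, and others where the text says so. Members and lists were chosen with earlier results of these data known. Alternatives were DESeq2 1.42.0, its size factors, no filter, a replicate block, whole-gene counts, other floors, a test against a 1.2-fold change, leaving out Gm26917 and Gm42418, and leaving out each library.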

Additional observations from a re-analysis of the deposited data

Results flagged for a closer look

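In 10 of 136 groups of 4 libraries checked, the gap of the highest or lowest library to the next, as a share of the group's whole range, was above Dixon's 95% critical value for 4 samples, and chance alone gives about 5% of groups. Among members that changed, Zfp710 had such a library: dTAG-13 replicate 4 was at 51.0 CPM beside 56.9, 57.5 and 57.4 CPM (share 0.917). In the DMSO group of Zfp706 replicate 3 was the low one, at 175 CPM beside 184 to 185 CPM (share 0.889). DMSO replicate 4 was the low one in Zfp280b (49.4 beside 54.1 to 54.6 CPM, share 0.889), Zfp131 (40.1 beside 43.6 to 44.2 CPM, share 0.851) and Zfp951 (2.704 beside 3.49 to 3.63 CPM, share 0.852). In Zfp658 DMSO replicate 1 was high (4.42 beside 2.60 to 2.90 CPM, share 0.833), and in Zfp330 DMSO replicate 3 was low (19.4 beside 22.1 to 22.5 CPM, share 0.856). In the dTAG-13 group replicate 2 of Zfp410 was high (34.1 beside 31.9 to 32.0 CPM, share 0.961), and so was replicate 1 of Zfp277 (13.2 beside 12.6 to 12.7 CPM, share 0.918). The summed intronic CPM of the members stood apart in DMSO replicate 2, at 13248 beside 13685 to 13725 CPM (share 0.915).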

How the results depend on the processing

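No result run under an alternative changed direction. Counts of members that changed stayed within 1.5 times of those reported under DESeq2, DESeq2 size factors, no filter, whole-gene counts, floors of 1 and 10 CPM and without Gm26917 and Gm42418, and of the 54 exonic calls 53 were also made by DESeq2, 54 with its size factors, 50 with no filter, 41 in whole-gene counts and 53 without those genes. Libraries with the same replicate number in the 2 groups deviated from their group means with exonic correlations of 0.091, -0.019, -0.067 and 0.051, so the numbers were not taken as pairs. With the replicate block all the same, 27 members were lower and 29 higher in exonic reads and 13 and 14 in intronic ones, and 52 of the 54 calls were also made. The test against a 1.2-fold change left 4 lower and 7 higher in exonic reads (KRAB 4, other C2H2 genes 6, role lists 1, KRAB cofactors 4, Zbtb, Zscan and Zkscan genes 1) and 3 lower and 4 higher in intronic reads. These counts stand without the share of all genes that passes the same test. With 1 library left out, exonic counts ranged from 18 to 24 lower and 23 to 29 higher, KRAB genes from 12 to 16, other C2H2 genes from 27 to 33, role lists from 10 to 14, cofactors from 6 to 10, the other name families from 6 (without DMSO replicate 3) to 9, intronic counts from 7 to 11 lower and 11 to 17 higher, and the exonic minus intronic difference stayed at 0. Of 48 changes of named genes past the threshold, 21 kept it in every alternative run and 14 lost it with some library left out. The floor of 3 CPM gives members few reads at the low end, where the median standard error from 3 to 10 CPM was 0.12 on the log2 scale, about the median size of a change in that range, 0.12.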
